A study of Mus musculus and Homo sapiens with 17 samples.

Results

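The transcripts of 10 genes that mark T cells and divide them into subsets were measured in skin and skin tumours of mice: Cd3d, Cd3e, Cd4, Cd8a, Cd8b1, Trdc, Foxp3, Ctla4, Icos and Tnfrsf4. They were chosen by name, as the rows of the mouse count table that carry these gene symbols, and are 10 of the 54532 rows with a gene name. All 10 passed the filter on low counts, which left 22371 genes to test. The 11 libraries fall into 4 groups: 2 libraries of squamous cell carcinoma (SCC) and 3 of papilloma, a benign outgrowth of the epidermis, from mice labelled as lacking Dusp1 (KO), and 3 of SCC and 3 of skin from wild-type (WT) mice. All animals were of the C57BL/6-129 strain, and all groups, the skin included, are labelled as treated with DMBA, a carcinogen, and TPA, which promotes tumours. Dusp1 encodes a phosphatase that switches off MAP kinases, and the study set lesions of the knockout against those of WT mice. RNA came from whole sections of tissue embedded in OCT, so every cell of a section contributed, whereas keratinocytes are the cell type that the labels give. The labels give neither the ages of the mice nor the kind of Dusp1 allele, and whether each library came from its own animal is not stated. The p-values therefore measure the spread between these libraries, which may be in part technical.

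A T cell recognises antigen with a receptor made of alpha and beta chains, or of gamma and delta chains, and the CD3 proteins carry the signal into the cell. Helper and regulatory T cells bear the coreceptor CD4, cytotoxic T cells bear CD8, and mouse epidermis is home to dendritic epidermal T cells with a gamma delta receptor. Regulatory T cells are set by the transcription factor FOXP3, and they carry much CTLA4, ICOS and OX40, receptors that other activated T cells also use to restrain or to sustain a response.

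Totals were 34.4 to 47.9 M counts per library (M, units of 1e6). Levels are given in CPM, counts per 1e6 counts of a library after its total is multiplied by the normalization factor; on this scale 3 counts, taken as the upper limit that a count of 0 allows, are 0.0529 to 0.0871 CPM. These limits cover counting error only. Dusp1 itself averaged 157 ± 24.8 CPM (SD, n = 2) in SCC labelled KO, 116 ± 11.2 CPM (n = 3) in papillomas labelled KO, 74.5 ± 8.63 CPM (n = 3) in WT SCC and 85.2 ± 29.4 CPM (n = 3) in WT skin. The transcript was thus not lower under the KO label, the position of the reads within the gene is unknown from counts, and each direction below is that of the labels. Counts of 4 genes of the Y chromosome summed to 4779 in replicate 2 of SCC labelled KO and to 6624 and 9552 in WT skin replicates 1 and 2, against 0 to 7 in the other libraries.

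Letters of the regulatory sequence are shown for one gene of each role, to place the transcripts by their start: the CD3 chain Cd3d, the coreceptor Cd8a, the regulatory factor Foxp3 and the receptor Ctla4. Each is the stretch of 250 bases before a transcript start in RefSeq on GRCm38.p6, plus strand, read 5′ to 3′. None holds an annotated exon of its own gene in GENCODE M21, and exons of other genes were not checked. Capitals mark matches on either strand to AGGAAG, letters of ETS factor motifs, or AGATAA, letters of GATA factor motifs.
Cd3d: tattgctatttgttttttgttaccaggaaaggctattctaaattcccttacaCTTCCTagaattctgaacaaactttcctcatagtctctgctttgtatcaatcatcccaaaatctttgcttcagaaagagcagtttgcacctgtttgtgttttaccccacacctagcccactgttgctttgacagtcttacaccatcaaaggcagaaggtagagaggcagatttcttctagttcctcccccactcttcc
Cd8a: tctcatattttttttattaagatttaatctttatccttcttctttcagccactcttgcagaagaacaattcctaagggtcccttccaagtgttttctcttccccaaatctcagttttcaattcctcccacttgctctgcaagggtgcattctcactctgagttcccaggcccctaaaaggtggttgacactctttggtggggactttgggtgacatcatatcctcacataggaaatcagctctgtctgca
Foxp3: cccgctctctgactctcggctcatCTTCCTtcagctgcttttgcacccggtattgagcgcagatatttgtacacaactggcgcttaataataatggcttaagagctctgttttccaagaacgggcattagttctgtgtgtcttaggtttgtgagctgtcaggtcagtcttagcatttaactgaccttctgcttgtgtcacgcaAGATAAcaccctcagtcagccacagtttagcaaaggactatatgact
Ctla4: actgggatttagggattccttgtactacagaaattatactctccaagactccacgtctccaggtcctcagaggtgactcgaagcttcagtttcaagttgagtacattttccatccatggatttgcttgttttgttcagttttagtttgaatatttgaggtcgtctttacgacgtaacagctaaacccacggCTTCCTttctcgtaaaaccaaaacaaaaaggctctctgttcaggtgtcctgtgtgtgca

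The windows lie at chr9:44981536-44981785 for Cd3d, chr6:71373177-71373426 for Cd8a, chrX:7580233-7580482 for Foxp3 and chr1:60908775-60909024 for Ctla4. An entry in the RefSeq table was found for 6 of the 10 members. ETS letters occurred once in each of the Cd3d, Foxp3 and Ctla4 windows, and GATA letters once in that of Foxp3. Of 32817 windows of this length, 29.5% held the ETS letters and 9.99% the GATA letters. The letters TGTGGT, from RUNX factor motifs, are held by 14.0% of these windows and by none of the 4 shown. Foxp3 had another RefSeq entry, not shown, at chrX:7579426-7579675, with 109 bases of its own annotated exons and no ETS, GATA or RUNX letters. A match is a description of letters and not a binding site.

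The genes lie at scattered loci, with positions from GENCODE M21 on GRCm38. Cd3d (chr9:44981786-44987339) and Cd3e (chr9:44998740-45009627) are neighbours, as are Cd8b1 (chr6:71322788-71337494) and Cd8a (chr6:71373427-71379173), and Ctla4 (chr1:60887000-60915832) and Icos (chr1:60977927-61000320). Cd4 lies at chr6:124864692-124888221, Trdc at chr14:54142851-54148868, Foxp3 at chrX:7573644-7595245 and Tnfrsf4 at chr4:156013843-156016612. Annotated genes on the opposite strand overlap Cd3e (Gm48719), Trdc (Gm43434, Trdv5) and Foxp3 (Ppp1r3f, Gm36995, Ccdc22). Others overlap on the same strand, in Cd3e (Gm48720), Foxp3 (Flicr), Ctla4 (Rpl18-ps1) and Icos (Gm37039). The library kit marks strand, but how strand was set in counting was not given in the sources used here. Strand cannot part genes on the same strand. Counts of Cd3e, Trdc, Foxp3, Ctla4 and Icos are therefore less certain.

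All 10 members were counted at low levels in each group, and the mean of each was highest in WT skin. Their summed level was 11.7 and 17.8 CPM in SCC labelled KO, 15.9, 35.6 and 23.7 CPM in papillomas labelled KO, 19.3, 20.0 and 23.8 CPM in WT SCC, and 78.2, 64.9 and 40.9 CPM in WT skin. WT skin lay above every lesion, and replicate 2 of the papillomas labelled KO stood above the other 7 lesion libraries. In bulk tissue, fewer T cells and less of a transcript per T cell cannot be told apart.

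**Figure D1:**
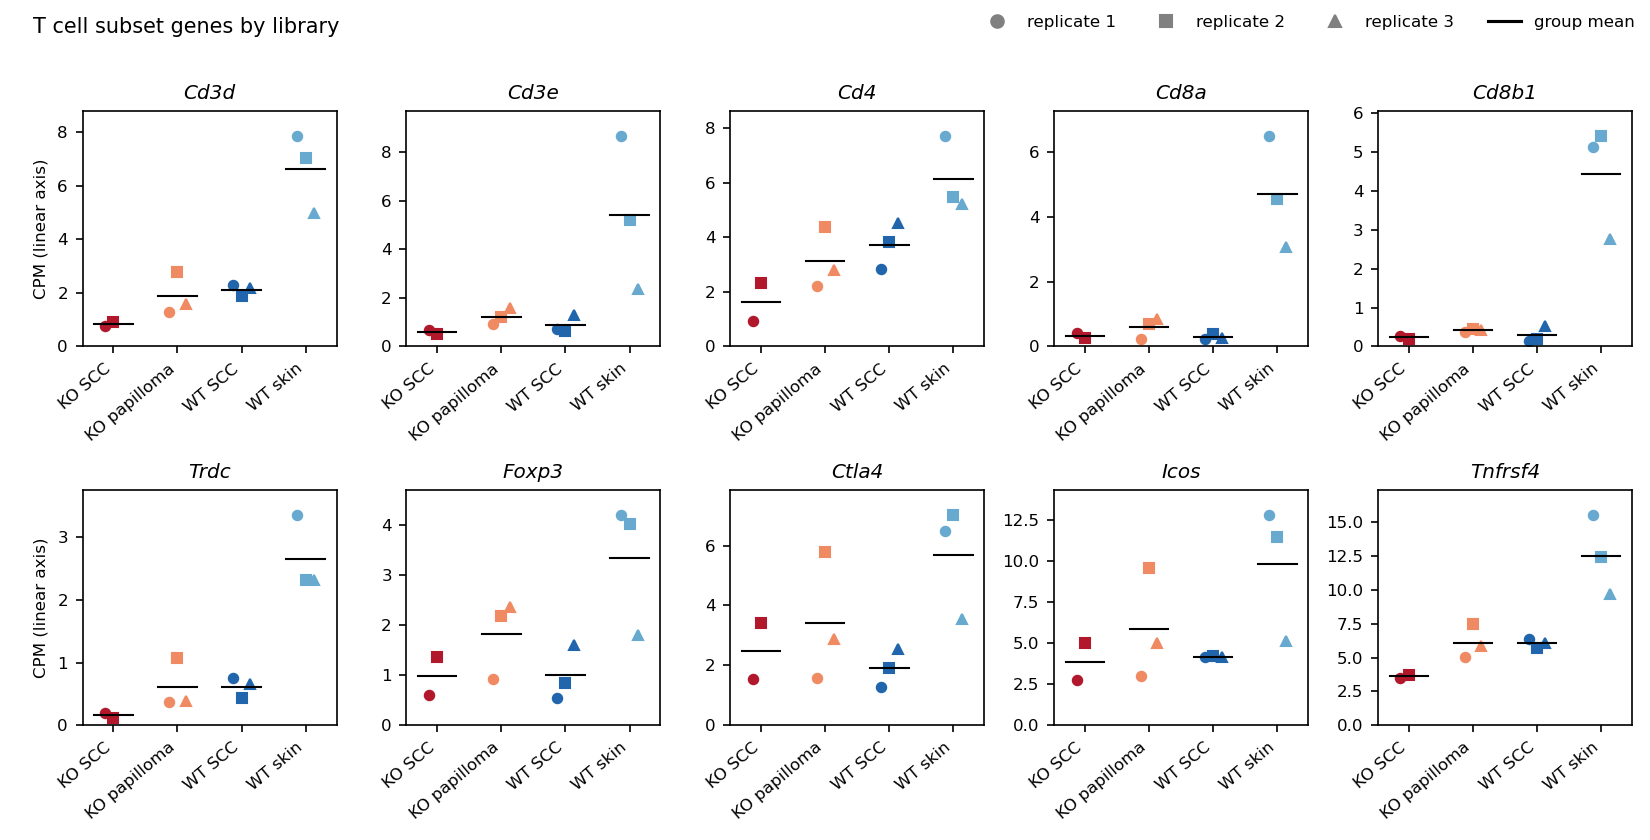
Level of each T cell subset gene in CPM (linear axes from 0) in every library, with SCC and papilloma labelled KO left of WT SCC and WT skin; points are replicates 1 to 3 and bars are group means. The skin libraries lie above the WT SCC libraries for every gene, and the summed level is 11.7 and 17.8 CPM in SCC labelled KO.

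The CD3 chains, present on all T cells, come first. Cd3d, the delta chain, was at 0.779 and 0.894 CPM in SCC labelled KO, at 1.30, 2.77 and 1.57 CPM in papillomas labelled KO, at 2.29, 1.87 and 2.17 CPM in WT SCC and at 7.85, 7.05 and 4.99 CPM in WT skin. Cd3e, the epsilon chain, was at 0.664 and 0.497 CPM in SCC labelled KO, at 0.930, 1.19 and 1.57 CPM in papillomas labelled KO, at 0.697, 0.638 and 1.30 CPM in WT SCC and at 8.64, 5.22 and 2.36 CPM in WT skin. For Cd3d the carcinomas labelled KO lay below every other library, while for Cd3e they overlapped WT SCC. WT skin replicate 3 was the lowest of its group for both chains.

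The coreceptors divide the alpha beta T cells. Cd4 was at 0.924 and 2.33 CPM in SCC labelled KO, at 2.21, 4.38 and 2.80 CPM in papillomas labelled KO, at 2.82, 3.83 and 4.52 CPM in WT SCC and at 7.70, 5.46 and 5.22 CPM in WT skin. Its skin and lesion ranges came close without meeting, and SCC labelled KO lay below WT SCC. Cd8a, the alpha chain of CD8, was at 0.404 and 0.248 CPM in SCC labelled KO, at 0.213, 0.706 and 0.839 CPM in papillomas labelled KO, at 0.232, 0.371 and 0.256 CPM in WT SCC and at 6.48, 4.55 and 3.08 CPM in WT skin. Cd8b1, the beta chain, was at 0.260 and 0.199 CPM in SCC labelled KO, at 0.372, 0.438 and 0.419 CPM in papillomas labelled KO, at 0.145, 0.185 and 0.512 CPM in WT SCC and at 5.14, 5.40 and 2.77 CPM in WT skin. Both CD8 chains thus rested on few reads in lesions, 8 to 32 counts of Cd8a and 5 to 22 of Cd8b1, and the lesion groups overlapped except that SCC labelled KO lay below the papillomas labelled KO for Cd8b1.

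Trdc, the constant segment of the delta chain, marks gamma delta T cells. It was at 0.202 and 0.124 CPM in SCC labelled KO, at 0.372, 1.07 and 0.393 CPM in papillomas labelled KO, at 0.755, 0.432 and 0.652 CPM in WT SCC and at 3.35, 2.32 and 2.31 CPM in WT skin. The carcinomas labelled KO, with 7 and 5 counts, were the lowest of all libraries.

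Foxp3 was at 0.606 and 1.37 CPM in SCC labelled KO, at 0.930, 2.19 and 2.36 CPM in papillomas labelled KO, at 0.552, 0.844 and 1.61 CPM in WT SCC and at 4.20, 4.03 and 1.80 CPM in WT skin. Ctla4, the inhibitory receptor for CD80 and CD86, was at 1.56 and 3.4 CPM in SCC labelled KO, at 1.57, 5.77 and 2.88 CPM in papillomas labelled KO, at 1.28, 1.92 and 2.56 CPM in WT SCC and at 6.48, 7.01 and 3.56 CPM in WT skin. For both, the 3 lesion groups overlapped, and the highest papillomas labelled KO exceeded WT skin replicate 3. Icos, a costimulatory receptor, was at 2.74 and 4.99 CPM in SCC labelled KO, at 3.00, 9.59 and 5.01 CPM in papillomas labelled KO, at 4.18, 4.20 and 4.15 CPM in WT SCC and at 12.8, 11.5 and 5.16 CPM in WT skin. Tnfrsf4, which encodes OX40, was at 3.52 and 3.73 CPM in SCC labelled KO, at 5.02, 7.49 and 5.82 CPM in papillomas labelled KO, at 6.39, 5.70 and 6.06 CPM in WT SCC and at 15.5, 12.4 and 9.66 CPM in WT skin. Icos followed the overlap seen for Ctla4, whereas for Tnfrsf4 the carcinomas labelled KO lay below all other libraries, as for Cd3d and Trdc. The share of all genes with that order was not counted. Of all genes tested, 23.7% had both carcinomas labelled KO below every WT SCC library, and 15.5% below every papilloma labelled KO.

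Levels of different genes were compared only per kilobase of exon. Tnfrsf4 was the highest member in each group, with mean levels of 2.65 CPM per kb in SCC labelled KO, 4.48 in papillomas labelled KO, 4.43 in WT SCC and 9.16 in WT skin. In skin Cd3d (3.65 CPM per kb) and Cd8b1 (2.99) came next and Trdc was lowest (0.688). In WT SCC Cd8b1 averaged 0.189 CPM per kb and Cd8a 0.0787, the lowest of the 10 there. Trdc was again lowest in SCC labelled KO (0.0422 CPM per kb) and in papillomas labelled KO (0.158). Icos stood next after Tnfrsf4 in the 3 lesion groups, at 1.13 CPM per kb in SCC labelled KO, 1.71 in papillomas labelled KO and 1.22 in WT SCC, and below Cd8b1 in skin, at 2.87.

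SCC labelled KO was compared with WT SCC to ask what the genotype label changes within one lesion type. None of the 10 members passed edgeR's quasi-likelihood test with Benjamini-Hochberg adjustment, where 4.48% of all genes tested were called higher and 3.38% lower. At an unadjusted p under 0.05, 4 members were lower, Cd3d, Cd4, Trdc and Tnfrsf4, and none higher, beside 24.8% of all genes in either direction by that rule. The same 4 of 10 members had both carcinomas labelled KO below every WT SCC library in CPM, as had 23.7% of all genes tested. Their values were a log2 fold change of -1.33 ± 0.37 (SE) for Cd3d (adjusted p = 0.0522), -1.90 ± 0.61 for Trdc (0.0802), -0.74 ± 0.25 for Tnfrsf4 (0.0932) and -1.19 ± 0.44 for Cd4 (0.118). The median over the members was -0.45, and over all genes tested -0.01.

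The regulatory and CD8 genes had no common direction in this comparison. Foxp3 had a log2 fold change of -0.02 (95% interval -1.34 to 1.30), Ctla4 0.37 (-0.83 to 1.57), Icos -0.11 (-1.18 to 0.97), Cd8a 0.17 (-1.13 to 1.47) and Cd8b1 -0.30 (-1.57 to 0.96), with Cd3e at -0.60 (-1.82 to 0.61). The intervals include more than a doubling for Ctla4 and a more than 2-fold loss for Foxp3, and changes of that size are thus not excluded. Between the 2 carcinomas labelled KO, replicate 2, the one with Y chromosome counts, was the higher for 6 members, with the widest gaps in Cd4, Foxp3, Ctla4 and Icos.

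The count of 0 depended on the tool. DESeq2 called 3 members lower, Cd3d (adjusted p = 0.0143), Trdc (0.0411) and Cd4 (0.0461), beside 7.57% of all genes. A fit scaled by library totals alone, which moved the median of all genes to -0.27, called Cd3d, Trdc and Tnfrsf4 lower beside 10.0% of all genes. A fit of the 2 groups alone called Cd3d and Tnfrsf4 lower beside 10.9%; Cd8b1 did not pass the filter on low counts in these 5 libraries, so 9 members were tested there. Over all alternatives the adjusted p ran from 0.0143 to 0.323 for Cd3d, 0.0411 to 0.310 for Trdc, 0.0461 to 0.615 for Cd4 and 0.0310 to 0.428 for Tnfrsf4, and none of the 4 changed sign. With any 1 of the 5 libraries left out, replicate 2 of SCC labelled KO included, the count stayed at 0.

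**Figure D2:**
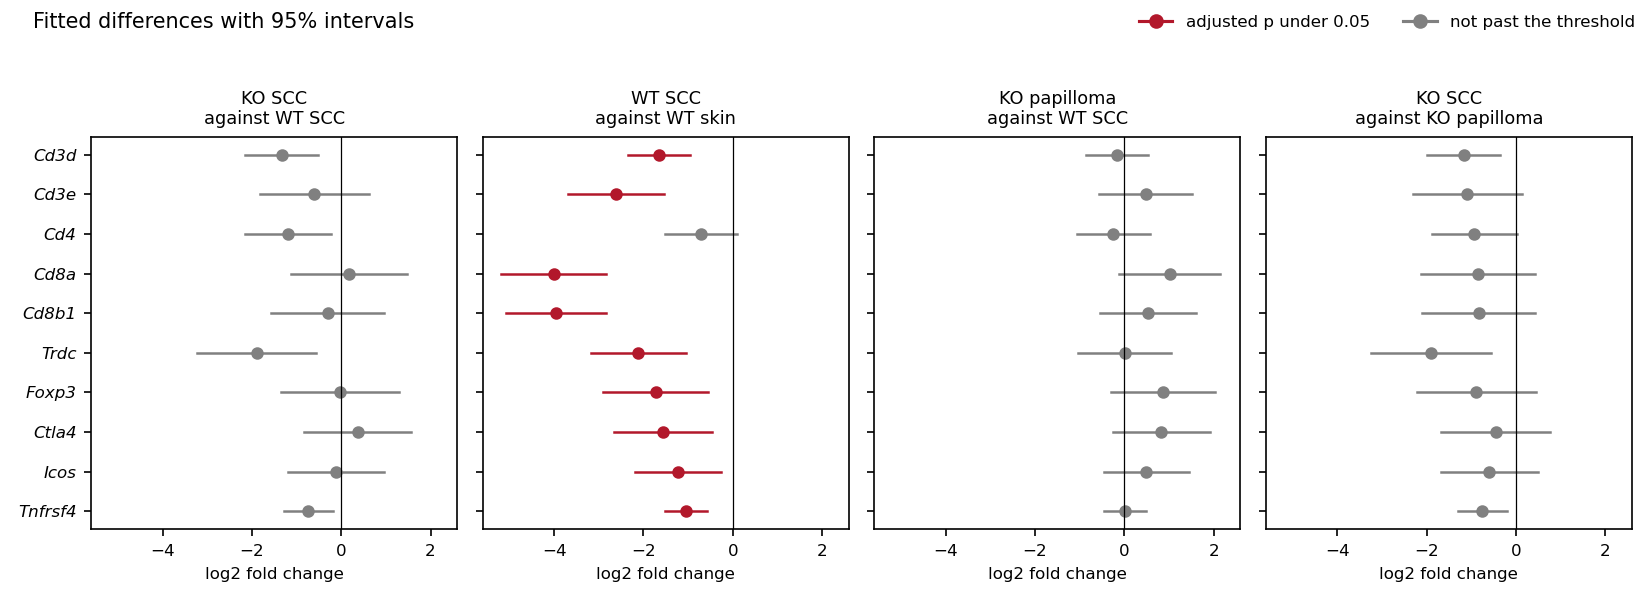
Fitted log2 fold change of each member with its 95% interval in the 4 comparisons, named group over the other; red marks an adjusted p under 0.05 in edgeR's quasi-likelihood test. In WT SCC against WT skin 9 of the 10 members are lower and past the threshold, and in the other 3 comparisons none is.

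WT carcinomas were compared with WT skin. Nearly all T cell subset genes were lower in the tumours, the CD8 chains most. Of the 10 members 9 fell and none rose, beside 23.6% of all genes called lower and 16.9% called higher. All 10 had every WT SCC library below every skin library in CPM, as had 29.9% of all genes tested. The median over the members was -1.69, and over all genes tested -0.16.

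Cd8a was 16.1-fold lower in WT SCC than in WT skin (log2 fold change -4.01 ± 0.54 (SE), adjusted p = 0.000214, edgeR). Cd8b1 was 15.5-fold lower (-3.96 ± 0.50, adjusted p = 0.000161). Cd4, by contrast, did not pass, at -0.72 ± 0.37 (adjusted p = 0.140, 95% interval -1.53 to 0.10). Cd3e fell by 2.61 on the log2 scale (SE 0.49, adjusted p = 0.00168) and Cd3d by 1.65 (SE 0.31, adjusted p = 0.00193). Trdc was 4.33-fold lower (-2.12 ± 0.48, adjusted p = 0.00533). Thus the general T cell chains, the CD8 chains and the gamma delta marker were all lower in WT SCC.

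The regulatory and costimulatory receptor genes fell by less than the CD8 chains. Foxp3 was 3.32-fold lower in WT SCC than in WT skin (log2 fold change -1.73 ± 0.54 (SE), adjusted p = 0.0243, edgeR). Ctla4 was 2.95-fold lower (-1.56 ± 0.50, adjusted p = 0.0272), Icos 2.35-fold (-1.23 ± 0.44, adjusted p = 0.0425) and Tnfrsf4 2.07-fold (-1.05 ± 0.22, adjusted p = 0.00314). The difference between the falls of any 2 members was not tested. Without WT skin replicate 1 or 2, or WT SCC replicate 1 or 2, the count of members called was 6, with Foxp3, Ctla4 and Icos lost (adjusted p 0.0624 to 0.127), and without WT SCC replicate 3 it was 8, with Icos lost (0.0878). Without WT skin replicate 3, the lowest of its group, it was 9. This replicate had 7 counts of the Y chromosome genes, against 6624 and 9552 in the other skin libraries. Each WT SCC library had 0, and the labels do not give sex. The part of this difference in the fall of the members was not tested.

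Genes of other cell types were compared as well, where 23.6% of all genes were called lower and 16.9% higher. All 8 tested genes expressed in leukocytes at large fell in WT SCC, with Ptprc, the pan-leukocyte gene CD45, at -0.89 ± 0.28 (adjusted p = 0.0268, edgeR). The call of Ptprc was lost without WT skin replicate 1 or 3 or WT SCC replicate 1 or 2 (adjusted p up to 0.104). Their summed level was 216 to 276 CPM in WT SCC and 408 to 566 CPM in WT skin. Of 12 macrophage genes 9 fell, with sums of 494 to 658 CPM in WT SCC and 874 to 2230 CPM in WT skin. Of 12 genes of dendritic and Langerhans cells 11 fell and 1 rose. Of 9 B and plasma cell genes 4 fell and 1 rose, and of 7 genes of NK and innate lymphoid cells 3 fell and 1 rose. These are too few genes to set either list apart from all genes. Keratinocyte genes went the other way, with 7 of 10 risen and 2 fallen and sums of 37600 to 39800 CPM in WT SCC against 8370 to 18100 CPM in WT skin. The part of these shifts in the fall of the T cell genes was not tested.

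Papillomas labelled KO were compared with WT SCC, 2 groups that differ in both lesion and label. None of the 10 members passed edgeR's test, beside 3.49% of all genes called higher and 1.77% lower. None had an unadjusted p under 0.05, beside 19.4% of all genes, and DESeq2 called none, beside 10.2%. The log2 fold changes were highest for Cd8a (1.02, 95% interval -0.11 to 2.14), Foxp3 (0.86, -0.31 to 2.03) and Ctla4 (0.83, -0.26 to 1.91). The others lay between -0.25 for Cd4 and 0.53 for Cd8b1, and the median over the members was 0.49, against 0.02 over all genes tested. For Ctla4, leaving out replicate 2 of the papillomas labelled KO gave 0.21.

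Carcinomas labelled KO were compared with papillomas labelled KO, the step between lesions under one label. No member passed edgeR's test, in which 0.0492% of all genes were called higher and 0.237% lower. DESeq2 called no member either, beside 5.33% of all genes. All 10 log2 fold changes were below 0, with a median of -0.86 against -0.05 over all genes tested. At an unadjusted p under 0.05, 3 members were lower beside 7.87% of all genes, Trdc (-1.90 ± 0.61 (SE), adjusted p = 0.201), Cd3d (-1.17 ± 0.37, adjusted p = 0.200) and Tnfrsf4 (-0.75 ± 0.25, adjusted p = 0.211). Both carcinomas lay below every papilloma in CPM for 5 members, these 3 with Cd3e and Cd8b1, and for 15.5% of all genes tested. The comparisons share libraries: the 3 of WT SCC enter 3 of them, and the 2 carcinomas and the 3 papillomas labelled KO enter 2 each, so their values are set side by side and not counted as separate evidence.

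Within a library, ratios of raw counts describe the mix of T cell transcripts with no part for library size; they are descriptions without a test. Cd8a/Cd4 was 0.438 and 0.106 in SCC labelled KO, 0.0964, 0.161 and 0.299 in papillomas labelled KO, 0.0825, 0.0968 and 0.0567 in WT SCC, and 0.842, 0.834 and 0.591 in WT skin. Every lesion library lay below every skin library in this ratio. Foxp3/Cd3e was 0.913 and 2.75 in SCC labelled KO, 1.0, 1.84 and 1.5 in papillomas labelled KO, 0.792, 1.32 and 1.23 in WT SCC, and 0.486, 0.772 and 0.761 in WT skin. Icos/Cd3e was 4.13 and 10.1 in SCC labelled KO, 3.23, 8.04 and 3.18 in papillomas labelled KO, 6.00, 6.58 and 3.18 in WT SCC, and 1.49, 2.21 and 2.19 in WT skin. Relative to the CD3 epsilon chain, Foxp3 and Icos were thus higher in each lesion library than in each skin library, while both fell in CPM in WT SCC. For Foxp3 the gap was narrow, 0.792 in a WT SCC library against 0.772 in a skin library. Against Cd3d the order of Foxp3 did not hold. WT SCC replicate 1 had 19 counts of Foxp3 to 79 of Cd3d, and WT skin replicate 3 had 102 to 283. Both carcinomas labelled KO lay above the WT SCC range in Cd8a/Cd4, and the lesion groups otherwise overlapped in these 3 ratios.

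Cd3e/Ptprc, the share of a T cell chain against a pan-leukocyte transcript, was 0.0389 and 0.0199 in SCC labelled KO, 0.0505, 0.0319 and 0.0924 in papillomas labelled KO, 0.0214, 0.0243 and 0.0354 in WT SCC, and 0.142, 0.100 and 0.0367 in WT skin. WT skin replicate 3 lay within the range of the lesions. Ctla4/Foxp3 was 2.49 to 2.57 in SCC labelled KO, 1.22 to 2.63 in papillomas labelled KO, 1.59 to 2.32 in WT SCC and 1.54 to 1.98 in WT skin. Both carcinomas labelled KO lay above WT SCC and WT skin in Ctla4/Foxp3 and within the range of the papillomas, and the other groups overlapped. Trdc/Cd3e was 0.250 to 0.304 in SCC labelled KO, 0.250 to 0.898 in papillomas labelled KO, 0.500 to 1.08 in WT SCC and 0.388 to 0.978 in WT skin. Carcinomas labelled KO thus lay below WT SCC in this ratio, on 5 and 7 counts of Trdc. Cd8b1/Cd8a, Cd3d/Cd3e and Tnfrsf4/Foxp3 overlapped between WT SCC and WT skin.

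**Figure D3:**
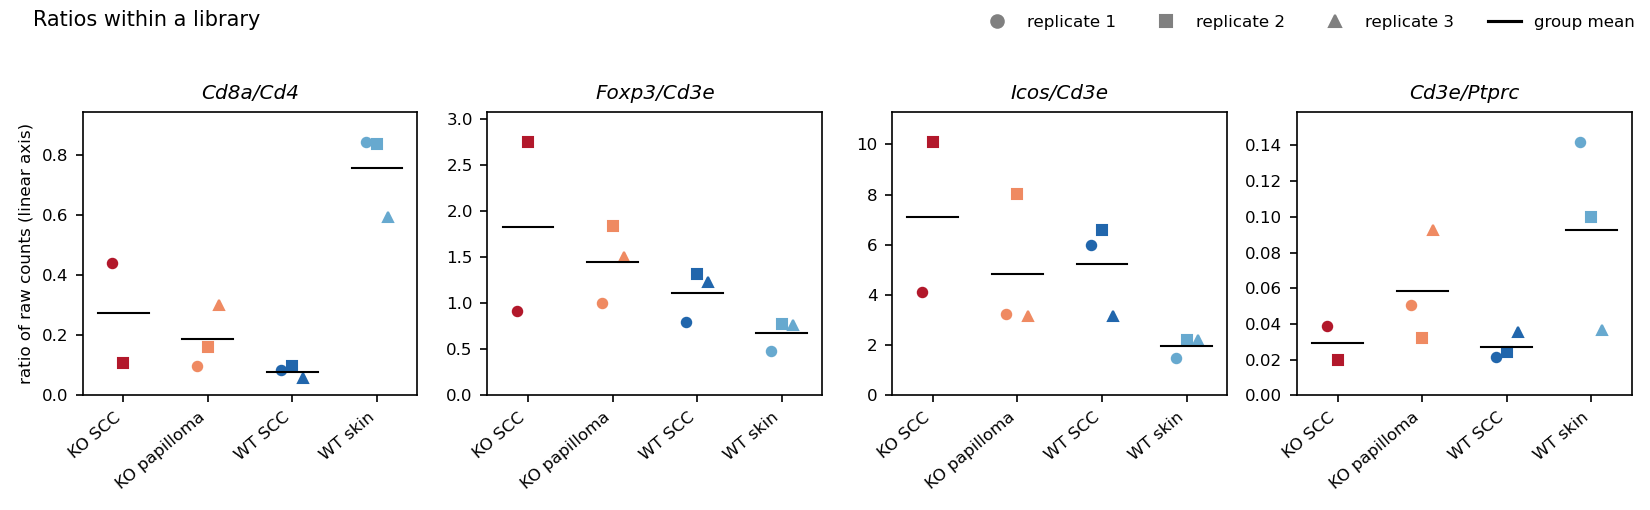
Ratios of raw counts within each library (linear axes from 0), groups as in the plot of levels, with bars at group means. Cd8a/Cd4 is 0.0567 to 0.0968 in WT SCC and 0.591 to 0.842 in WT skin, and Icos/Cd3e is higher in every lesion library than in every skin library.

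Among the 8 lesion libraries some members varied together, described here by correlations of log2 CPM. Cd3d, Trdc and Tnfrsf4 were the closest, with Pearson r of 0.982 for Cd3d and Tnfrsf4, 0.955 for Cd3d and Trdc and 0.951 for Trdc and Tnfrsf4. Ctla4 went with Icos (0.872) and Foxp3 (0.864). Foxp3 and Icos had 0.698. Across these 2 sets the values ran from 0.190 for Trdc and Ctla4 to 0.616 for Icos and Tnfrsf4. Icos and Cd3d had 0.602, so that Icos stood near both sets. Other pairs were close too: Cd3e and Cd8b1 (0.860), Cd3d and Cd4 (0.853), Cd4 and Tnfrsf4 (0.824) and Foxp3 and Cd8b1 (0.728). The 2 sets are therefore not set apart from the other members. Without replicate 2 of the papillomas labelled KO, over 7 libraries, Trdc and Ctla4 had -0.42, Icos and Tnfrsf4 0.371 and Ctla4 and Icos 0.690. The 2 CD8 chains had an r of 0.402, on few counts. The libraries of a group share lesion and label, so these values describe the libraries.

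The genes most like a member were sought over all 11 libraries, where the gap between skin and lesions enters each correlation. For Trdc the closest was Hcst (r = 0.983 over 11 libraries and 0.967 over the 8 lesions), which encodes the signalling adaptor DAP10 of lymphocytes, followed by Khk, Pros1, Cd52 and Gm438 (0.965 to 0.971). For Cd4 it was Gbp8 (0.964, and 0.961 in lesions), an interferon-inducible GTPase, followed by Fes, Kbtbd13, Pik3r5 and Tnfrsf14 (0.951 to 0.954). For Foxp3 they were B230322F03Rik, Pmfbp1, Gata1, Satb1 and Fmnl1 (0.931 to 0.954), among which Satb1, a chromatin organiser of T cells, had the highest r in lesions, 0.969. For Cd3e they were Abcg5, Gm5532, Gm5144, Loxl4 and Ctnna3 (0.972 to 0.986), where Abcg5 and Gm5144 had at most 2 and 4 counts in any lesion. For Cd8a they were Rbm38, Isl1, Rilp, Izumo4 and Scgb1a1 (0.979 to 0.981).

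Further genes of the receptor and its signalling were mostly lower in WT SCC than in WT skin. Of 20 such genes 16 fell and 2 rose, beside 23.6% and 16.9% of all genes, with a median log2 fold change of -1.92. The CD3 gamma chain Cd3g was at 2.24, 2.35 and 3.63 CPM in WT SCC and 25.8, 16.4 and 11.4 CPM in WT skin (-2.70 ± 0.31 (SE), adjusted p = 9.09e-05, edgeR). Trbc1, a constant segment of the beta chain, fell by 2.69 on the log2 scale (SE 0.30, adjusted p = 7.68e-05). The genes that rose were Cd5 and Trbc2. Between SCC labelled KO and WT SCC 1 of the 20 passed, Fyb, an adaptor also present in myeloid cells and platelets, lower at -1.17 ± 0.26 (adjusted p = 0.0210). Thy1 had the next smallest p there, at -0.45 (adjusted p = 0.277). Fyb was also the 1 gene of the list that passed in papillomas labelled KO against WT SCC (-0.93, adjusted p = 0.0349). Without WT SCC replicate 2 or 3 or either SCC labelled KO the call of Fyb in SCC was lost (adjusted p up to 0.216), and without WT SCC replicate 2 or 3 or papilloma replicate 1 or 3 that in papillomas (up to 0.154). None passed in SCC against papillomas labelled KO, where Trbc1 was at -1.25 (adjusted p = 0.155). In this list and the 5 T cell lists that follow, 0 to 2 genes passed in either direction in each comparison with a KO label, and such counts set no list apart from all genes.

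Of 18 other genes of regulatory T cells 8 fell and 1 rose in WT SCC against WT skin, with a median of -1.09. Of all genes 23.6% fell and 16.9% rose there. Ccr4, a homing receptor for skin, was at 0.377, 0.453 and 1.05 CPM in WT SCC and 12.3, 7.49 and 3.74 CPM in WT skin (-3.64 ± 0.53 (SE), adjusted p = 0.000366, edgeR). Capg, an actin-capping protein found in many cell types, was 2.68-fold higher in WT SCC (adjusted p = 0.000400). The comparison of SCC labelled KO with WT SCC had 1 rise and 1 fall among the 18, near the shares of all genes called there (4.48% higher and 3.38% lower), so the counts are no result about the list. Prdm1, which encodes the repressor BLIMP1 and is also active in keratinocytes and plasma cells, was at 41.5 and 49.5 CPM in SCC labelled KO and 28.2, 26.2 and 30.2 CPM in WT SCC (0.69 ± 0.13, adjusted p = 0.0125). Lrrc32, the TGF-beta docking receptor GARP, was at 8.31 and 11.8 CPM in SCC labelled KO and 20.8, 32.5 and 28.6 CPM in WT SCC (-1.44 ± 0.30, adjusted p = 0.0172). Foxp3 was at -0.02 in that comparison, so the fall of Lrrc32 is not read as one of regulatory T cells. Prdm1 lost its call without WT SCC replicate 2 or replicate 2 of SCC labelled KO and with library totals alone (adjusted p up to 0.105), and Lrrc32 without WT SCC replicate 2 or 3 or replicate 1 of SCC labelled KO (up to 0.184). Prdm1 rose as well in papillomas labelled KO against WT SCC (0.63, adjusted p = 0.0118, and up to 0.0838 without WT SCC replicate 2 or with library totals alone), where Il2ra did not pass (1.23, adjusted p = 0.0846), and no gene of the list passed in SCC against papillomas labelled KO.

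Of 15 tested genes of CD8 and other cytotoxic lymphocytes 10 fell and none rose in WT SCC against WT skin, with a median of -2.48. Of all genes 23.6% fell and 16.9% rose there. Gzmc, a granzyme, was 10.8-fold lower (adjusted p = 7.50e-06, edgeR) and Klrk1, the receptor NKG2D, 5.57-fold (adjusted p = 0.000102). Set against WT SCC, SCC labelled KO had 1 gene past the threshold, Eomes, a T-box factor of cytotoxic and NK cells. It was at 8.37 and 23.8 CPM in SCC labelled KO, 9.62, 4.60 and 3.22 CPM in papillomas labelled KO, 0.377, 0.329 and 0.443 CPM in WT SCC and 0.149, 0.463 and 0.229 CPM in WT skin. Every library labelled KO lay above every WT library, an order whose share over all genes was not counted. Eomes was 41.7-fold higher in SCC labelled KO than in WT SCC (5.38 ± 0.61, adjusted p = 0.00109) and 15.1-fold higher in papillomas labelled KO than in WT SCC (adjusted p = 0.00260). Both calls of Eomes were made under every alternative run (adjusted p up to 0.0117 and 0.0238). Cd8a, at 0.17 and 1.02, did not pass in either comparison. The median over the 15 tested genes was -0.32 in SCC labelled KO against WT SCC, with 9 below 0. In papillomas labelled KO against WT SCC it was 0.87, with 2 below 0. Which cells of the sections held the Eomes transcripts was not tested. Gzmb had a log2 fold change of 1.80 in SCC labelled KO against WT SCC and did not pass (adjusted p = 0.0753). Gzmc was 1.98-fold higher in papillomas labelled KO than in WT SCC (adjusted p = 0.0322), and 3.47-fold lower in SCC than in papillomas labelled KO (adjusted p = 0.0348). The rise of Gzmc was lost under 8 of 12 alternatives, WT SCC replicate 2 or 3 or any papilloma left out among them (adjusted p up to 0.152), and the fall under 6 of 11, papilloma replicate 1 or 3 or either SCC labelled KO left out among them (up to 0.301).

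The list of gamma delta and dendritic epidermal T cell genes had 28 symbols, of which 21 were in the table and 16 were tested. In WT SCC against WT skin 10 fell and 1 rose, beside 23.6% and 16.9% of all genes. Sox13, a factor of gamma delta T cells, was the gene that rose (3.42-fold, adjusted p = 0.000468, edgeR). In SCC labelled KO against WT SCC 1 fell and none rose, a call lost under 7 of 11 alternatives, any 1 of the 5 libraries left out among them. None passed in the other comparisons, in which Trdc did not pass either. Tcrg-C4, a gamma chain segment, was at 2.66 in papillomas labelled KO against WT SCC (adjusted p = 0.0699), on as few as 1 count in a library.

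Of 16 tested CD4 helper lineage genes 8 fell and 1 rose in WT SCC against WT skin, beside 23.6% and 16.9% of all genes. Gata3, a factor of T helper cells that keratinocytes also express, was 3.98-fold lower (adjusted p = 0.000150, edgeR), and the adhesion receptor Cd44 3.06-fold higher (adjusted p = 3.30e-05). The summed level of the list was 751 to 798 CPM in WT SCC and 371 to 439 CPM in WT skin. Cd44 made up most of it, at 708, 711 and 664 CPM in WT SCC. Of the same genes 2 fell in SCC labelled KO against WT SCC. Gata3 was at 6.93 and 8.20 CPM in SCC labelled KO and 17.1, 18.1 and 15.7 CPM in WT SCC (-1.17 ± 0.29 (SE), adjusted p = 0.0339). Bcl6, a repressor of follicular helper T cells and other lineages, was at 19.4 and 18.5 CPM in SCC labelled KO and 35.5, 35.7 and 33.8 CPM in WT SCC (-0.89 ± 0.15, adjusted p = 0.00677). The call of Gata3 was lost without any 1 of the 5 libraries (adjusted p up to 0.263) and that of Bcl6 without either SCC labelled KO (up to 0.0671). Bcl6 was the 1 gene of the list that fell in papillomas labelled KO against WT SCC (-0.52, adjusted p = 0.0417), lost under 10 of 12 alternatives, RLE size factors, no filter, the 2 groups alone and any 1 of the 6 libraries left out among them (up to 0.151), and none passed in SCC against papillomas labelled KO, where Gata3 was at -1.61 (adjusted p = 0.0520).

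The partners of the costimulatory and inhibitory receptors were tested as a list of 12. In WT SCC against WT skin 3 fell and 2 rose, about the shares of all genes called there (23.6% lower and 16.9% higher), so the counts are no result about the list. Cd80, a ligand of CTLA4, was at 18.1, 17.3 and 13.3 CPM in WT SCC and 3.23, 1.93 and 2.33 CPM in WT skin (2.70 ± 0.26 (SE), adjusted p = 2.95e-05, edgeR), whereas Ctla4 and Cd86, its other ligand, fell. Cd274, the ligand PD-L1, was 3.27-fold lower (adjusted p = 0.00159). Icosl, the ligand of ICOS, was the 1 gene that passed in SCC labelled KO against WT SCC and was at 8.95 and 12.7 CPM in SCC labelled KO and 23.7, 29.2 and 24.7 CPM in WT SCC (-1.26 ± 0.28, adjusted p = 0.0212), while Icos was at -0.11. The call was lost without WT SCC replicate 2 or 3 or either SCC labelled KO (adjusted p up to 0.217). Lag3 did not pass there (-1.25, adjusted p = 0.0673). None of the 12 passed in the 2 comparisons with papillomas.

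Markers of other cells were compared between SCC labelled KO and WT SCC as well. Of all genes tested 4.48% were called higher and 3.38% lower there. None of the 8 leukocyte genes passed, with sums of 161 to 217 CPM in SCC labelled KO and 216 to 276 CPM in WT SCC, and Ptprc was at -0.60 (adjusted p = 0.272, edgeR). Of 9 B and plasma cell genes 3 fell and 1 rose, with sums of 55.1 to 70.6 CPM in SCC labelled KO and 209 to 220 CPM in WT SCC. Of 12 macrophage genes 1 fell, of 12 dendritic and Langerhans cell genes 2 fell, and none of 7 NK and innate lymphoid genes passed. Macrophage sums were 248 to 309 CPM in SCC labelled KO and 494 to 658 CPM in WT SCC. The sums were higher in SCC labelled KO for dendritic and Langerhans cells (195 to 212 against 162 to 172 CPM) and for NK and innate lymphoid cells (11.1 to 12.8 against 5.25 to 7.14 CPM). The counts of genes called in these last lists set none of them apart from all genes. The B and plasma cell genes that fell, Igkc, Jchain and Mzb1, were a larger share of their short list than the 3.38% of all genes. The same genes fell in papillomas labelled KO against WT SCC, where 1.77% of all genes were called lower. Whether that list differs from all genes was not tested. Of 10 keratinocyte genes 1 rose and 2 fell, with sums of 46800 to 50300 CPM in SCC labelled KO and 37600 to 39800 CPM in WT SCC. Their part in the values of the T cell genes was not tested.

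**Figure D4:**
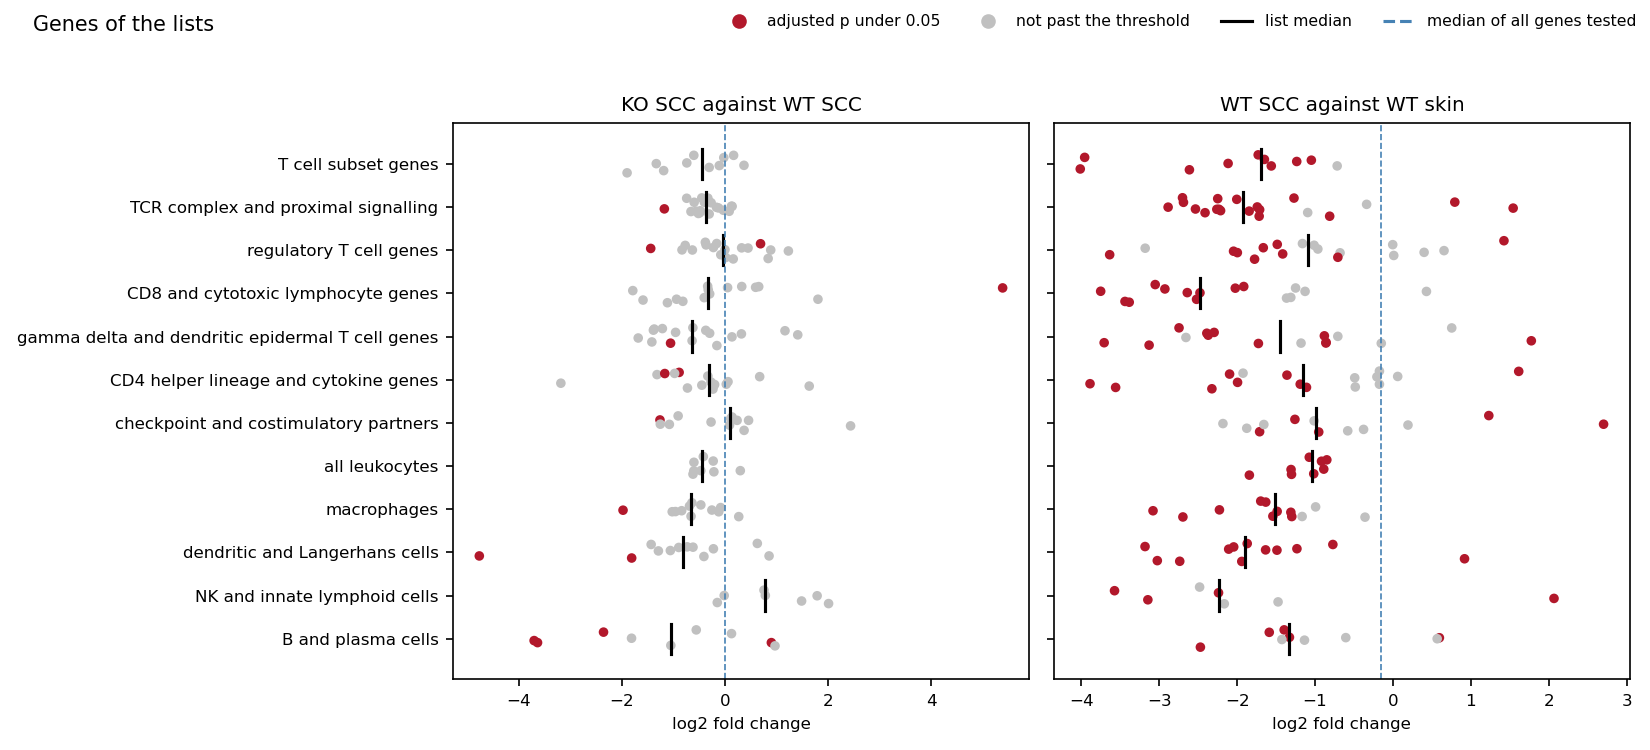
Fitted log2 fold changes of all tested genes of the members and 11 further lists in SCC labelled KO against WT SCC (left) and WT SCC against WT skin (right); red marks an adjusted p under 0.05, black bars are list medians and the dashed line is the median of all genes tested. In WT SCC against WT skin the median is -1.69 for the members and -0.16 for all genes, and on the left the gene farthest to the right is Eomes.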

How the data were processed

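RNA was measured in 11 mouse libraries made with a stranded kit that selects mRNA, per the labels' protocols; the libraries of A431 cells were not used here. The deposited values are whole-number counts per gene without normalization. The tools HISAT2, StringTie and DESeq and the builds mm10 and hg38 are named, per the submitters' processing notes; the versions, the rule for counting, the strand setting and the annotation were not given in the sources used here. Of 55988 rows, 1456 had no gene name and held 0.115 to 0.496% of a library's counts; they were left out.

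All 11 libraries were fitted together as 4 groups in edgeR 4.0.16 (limma 3.58.1, R 4.3.3) with the default filterByExpr filter, TMM factors (0.816 to 1.24) and the two-sided quasi-likelihood test. Adjusted p-values come from it, by the Benjamini-Hochberg method over all 22371 genes of a comparison, and 0.05 was the threshold; DESeq2 1.42.0 is named where used. The biological coefficient of variation was 36.6%. An SE is the log2 fold change divided by the square root of its F, and a 95% interval uses the t quantile at the test's degrees of freedom. CPM use the TMM-scaled library size; correlations use log2 CPM with a prior count of 2. The procedure was tested on simulated data. Pearson's r between libraries of a group was 0.896 to 0.983 and chi-square per degree of freedom 14.3 to 232, above sampling noise, so no library was taken as deposited more than once.

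The rule named the 10 members in every comparison, the 2 genes of smallest p from each of 6 T cell lists in each comparison, and the 5 genes most like Cd3e, Cd8a, Cd4, Trdc and Foxp3; some of these are not reported here. Trac and Trbc2 were chosen after their values were seen. Members and lists were chosen with earlier results of these data known, so they are not independent evidence. The alternatives were RLE size factors, library totals alone, DESeq2, no filter, a block for the replicate number, the 2 groups alone and each library left out; for genes outside the members they were added after seeing the data. Exon lengths are from GENCODE M21 and sequences from RefSeq.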

Additional observations from a re-analysis of the deposited data

How the results depend on the processing

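Depth limits these genes: Cd8a, Cd8b1 and Trdc had 5 to 44 counts in lesions, and SCC labelled KO had 2 libraries, so that leaving 1 out assumes that the other varies like the remaining groups. In WT SCC against WT skin 9 members were called lower under RLE size factors, library totals alone, no filter, DESeq2, the replicate block and the 2 groups alone, and 6 to 9 with a library left out; no member changed sign. In SCC labelled KO against WT SCC the count was 3 with library totals alone, 3 with DESeq2 and 2 with the 2 groups alone, in place of 0; it was 0 under the other alternatives. It was 0 under all of them in the other comparisons.

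Signs turned only for members past no threshold, and the cause was not tested. In SCC labelled KO against WT SCC Cd8a was at -0.11 with library totals alone and Foxp3 at 0.019 with RLE size factors, 0.035 with no filter, 0.018 with DESeq2 and 0.076 with the replicate block. With a library left out, Cd8a ran from -0.21 to 0.48, Cd8b1 from -0.60 to 0.45, Foxp3 from -0.73 to 0.49, Ctla4 from -0.30 to 0.83 and Icos from -0.61 to 0.26. In papillomas labelled KO against WT SCC library totals alone gave -0.13 for Trdc and -0.12 for Tnfrsf4, and the block gave -0.022 for Trdc. With a library left out, Cd3d ran from -0.55 to 0.044, Trdc from -0.67 to 0.26, Icos from -0.060 to 0.81 and Tnfrsf4 from -0.16 to 0.14. In SCC against papillomas labelled KO Ctla4 ran from -1.13 to 0.16.

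The labels do not say that replicate numbers pair the libraries, and deviations of same-numbered libraries correlated from -0.411 to 0.166. Deviations from the means of so few libraries are tied within a group, so these values cannot exclude pairing. The column names of SCC labelled KO also carry other numbers than the replicate labels. With the number as a block the genes called over the table were 798 in place of 1760 in SCC labelled KO against WT SCC, 7874 in place of 9054 in WT SCC against WT skin, 803 in place of 1175 in papillomas labelled KO against WT SCC and 1 in place of 64 in SCC against papillomas labelled KO; the block changed no member's call, and with it Fyb and Gata3 lost theirs in SCC labelled KO against WT SCC, Fyb, Bcl6 and Gzmc in papillomas labelled KO against WT SCC and Gzmc in SCC against papillomas labelled KO. DESeq2 called 3328, 9959, 2160 and 823 genes in the same comparisons. Over the alternatives no called gene outside the members that the text names changed sign, and those called in WT SCC against WT skin kept their calls except Ptprc (lost in 4 of 12), Trac (2 of 12) and Cd5 (1 of 12, library totals alone, adjusted p = 0.0541).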

Other observations

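The constant segments of the T cell receptor beta chain went opposite ways. Trbc2 was at 138 and 114 CPM in SCC labelled KO, 81.4, 105 and 110.0 CPM in papillomas labelled KO, 136, 113 and 97.4 CPM in WT SCC and 46.1, 40.4 and 32.4 CPM in WT skin. It was 2.91-fold higher in WT SCC than in WT skin (log2 fold change 1.54 ± 0.18 (SE), adjusted p = 0.000108, edgeR). Trbc1 was at 3.16, 2.29 and 2.91 CPM in WT SCC and 23.0, 16.5 and 14.3 CPM in WT skin. Trac, the constant segment of the alpha chain that pairs with either beta chain, was at 0.929, 0.680 and 1.19 CPM in WT SCC and 5.19, 2.58 and 2.31 CPM in WT skin (-1.85 ± 0.50, adjusted p = 0.0130, lost at up to 0.0562 without WT skin replicate 1 or WT SCC replicate 2). Every lesion library lay above every skin library for Trbc2 and below it for Trbc1 and Trac. Trbc1 and Trbc2 are near-identical copies, so the split of their reads is uncertain. Reads that match both were handled by a rule that was not given in the sources used here. Trbc2 alone, at 81.4 to 138 CPM in lesions, was in each of them above the sum of Trbc1 and Trbc2 in any skin library. The cause of the rise in Trbc2 was not tested.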
